A study of Mus musculus with 6 samples.

Results

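The chemokine and colony-stimulating factor genes were examined in tumour epithelial cells of mouse skin papillomas. The rule took every gene whose annotated symbol was Ccl, Cxcl or Cx3cl with a number, Ccr, Cxcr or Ackr with a number, or Csf1, Csf2 or Csf3. Of 18193 genes with a probe set of their own, 53 met it: 32 chemokine ligands, 3 colony-stimulating factors and 18 receptors. RefSeq lists 62 genes under the same naming rule. Of the 9 without a probe set of their own, Ccl19, Ccl21a, Ccl21b, Ccl21c, Ccl21d and Ccl27b had probe sets shared with near-identical copies, and the others were not analysed here.

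The tumours were benign papillomas induced by chemicals, and expression was read on 6 Affymetrix mouse arrays. CTRL samples came from control mice given tamoxifen for 1 week (n = 3), whose genotype the labels do not detail further. Sox2cKO samples came from K14CREER:SOX2fl/fl mice given tamoxifen for the same time (n = 3), in which a tamoxifen-inducible Cre under the keratin 14 promoter removes floxed Sox2 in keratinocytes. All samples were living cells sorted as Epcam+ and alpha6 integrin+ after exclusion of CD45, CD31 and CD140a, so leukocytes, endothelium and fibroblasts were meant to be left out. The labels do not say whether cells of several mice were pooled, nor give the age of the mice, and p-values measure the spread between these samples. The comparison asks what changes in tumour epithelium when Sox2 is deleted.

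Chemokines are small secreted proteins that bind G protein-coupled receptors on leukocytes and guide them into tissue. Ligands of the CXC class that carry a Glu-Leu-Arg (ELR) motif draw neutrophils through Cxcr2, those induced by interferon draw T cells through Cxcr3, and many CC ligands draw monocytes, eosinophils or T cells. The colony-stimulating factors drive the production and survival of macrophages (Csf1), granulocytes and macrophages together (Csf2) and neutrophils (Csf3). Atypical receptors of the Ackr group bind chemokines without G protein signalling and remove them or hold them in place. Keratinocytes are a known source of several of these ligands, and their release is induced by cytokines through NF-kB.

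Sox2 read 7.19, 8.31 and 8.18 in the CTRL arrays and 4.07, 4.63 and 3.23 in the Sox2cKO arrays, lower in every Sox2cKO array (log2 difference -3.92, SE 0.41, limma adjusted p = 0.316 over all genes). The basal keratinocyte markers Krt14 and Itga6 read at least 13.94 and 12.07 in every array. Epcam, a marker used in the sort and the one of smallest p, read 11.07, 11.42 and 11.43 in CTRL. In Sox2cKO it read 11.24, 10.72 and 10.57 (difference -0.46, SE 0.20, limma unadjusted p = 0.0561). Array medians lay between 5.42 and 5.46. Xist and Eif2s3y showed a female pattern in CTRL replicates 2 and 3 and a male pattern in the other 4 arrays. The 18S ribosomal RNA probe sets averaged 12.49 in Sox2cKO replicate 3 and 10.96 to 11.78 elsewhere.

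In control tumour cells, ligand genes were above background about as often as all genes were, and most signalling receptors were at or near it. A gene was counted as above background where it exceeded the array's 40th percentile (4.90 to 4.94 on the log2 scale) in all 3 CTRL arrays, a level that 68.2% of all genes with their own probe set reached. This held for 25 of 35 ligand genes, colony-stimulating factors included, and for 7 of 18 receptor genes. Of the 25, 18 averaged at least 1 log2 unit above that level in CTRL, and the share of all genes that did so was not computed. Bacterial control probe sets without a target averaged 3.30 to 3.44, so the 40th percentile is a stricter level than the optical background. A value above it does not by itself show expression by tumour cells. Of 9 T cell markers on the array, 3 were above it in all CTRL arrays (Cd3e, Cd8a and Cd4, 5.70 to 6.40 over the 6 arrays). Cd3g, Cd247, Cd2 and Nkg7 were below it in all 6. The source of that signal was not tested. Probe sets differ in how strongly they bind, so values are compared between arrays for 1 gene and never between genes.

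**Figure D1:**
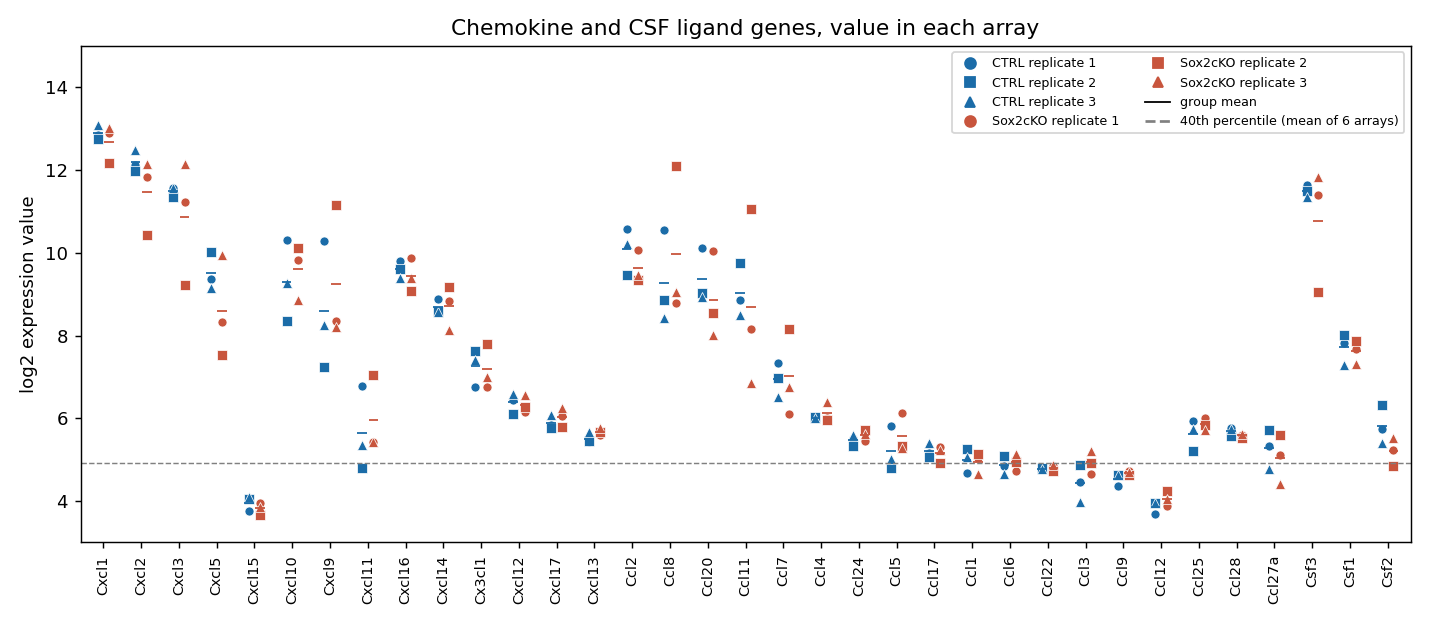
Log2 expression value of each of the 35 ligand genes in each of the 6 arrays (blue, CTRL; red, Sox2cKO; marker shape, replicate number), with group means as short lines and the mean 40th percentile dashed. Sox2cKO replicate 2 lies below the other 5 arrays in Cxcl1, Cxcl2, Cxcl3, Cxcl5 and Csf3 and above them in Cxcl9, Ccl8 and Ccl11.

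The neutrophil-attracting ELR ligands Cxcl1, Cxcl2, Cxcl3 and Cxcl5 were above background in all 6 arrays, and Cxcl15 in none (3.67 to 4.10). Cxcl5, Cxcl3, Cxcl15, Cxcl1 and Cxcl2 lie in that order in 1 cluster on mouse chromosome 5. Promoter sequence from RefSeq (GRCm38.p6, plus strand) is shown for Cxcl1, Cxcl2 and Cxcl3 because they share a stretch of letters. Each line gives the 120 bases before the annotated start, 5′ to 3′, and capitals mark matches on either strand to the NF-kB letters (GGG, any 3 bases, then TTCC), overlapping matches being joined.
Cxcl1, chr5:90891125-90891244: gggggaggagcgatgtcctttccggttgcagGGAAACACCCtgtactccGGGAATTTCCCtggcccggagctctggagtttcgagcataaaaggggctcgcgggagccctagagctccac
Cxcl2, chr5:90903779-90903898: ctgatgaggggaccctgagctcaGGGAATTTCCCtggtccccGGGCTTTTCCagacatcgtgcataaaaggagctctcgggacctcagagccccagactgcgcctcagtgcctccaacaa
Cxcl3, chr5:90785981-90786100: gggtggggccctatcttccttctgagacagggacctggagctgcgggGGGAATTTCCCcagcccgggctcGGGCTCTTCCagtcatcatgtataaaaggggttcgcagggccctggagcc
The match GGGAATTTCC stood in all 3, starting 71, 97 and 73 bases before the start of Cxcl1, Cxcl2 and Cxcl3. The NF-kB letters occurred within 250 bases before the start in 5.31% of 27025 genes, and in 8 of the 24 ligand genes that had a promoter entry (Cxcl1, Cxcl2, Cxcl3, Cxcl10, Ccl20, Ccl1, Ccl9 and Csf1). Such a match describes the letters and does not show binding. Of these 8, only Cxcl1, Cxcl2 and Cxcl3 were lowest in Sox2cKO replicate 2, where Cxcl10 read 10.13 and Ccl20 8.54. Cxcl5 and Csf3, also lowest in that array, had no promoter entry. Whether the letters go with the array values was not tested.

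Cxcl2 read 12.11, 11.97 and 12.48 in CTRL and 11.84, 10.43 and 12.14 in Sox2cKO. The groups overlapped, and Sox2cKO replicate 2 was lowest, with a gap of -1.41 to the nearest of the other 5 arrays. The difference was -0.72 (SE 0.42, 95% interval -1.71 to 0.27), and -0.20 without Sox2cKO replicate 2. Cxcl3 read 11.56, 11.36 and 11.55 in CTRL and 11.24, 9.21 and 12.15 in Sox2cKO, so its lowest and highest values were both in Sox2cKO arrays. Its difference of -0.62 (SE 0.66) became 0.20 without replicate 2. Cxcl5, which also binds Cxcr2, read 9.36, 10.02 and 9.14 against 8.33, 7.52 and 9.95, with a difference of -0.91 (SE 0.57, 95% interval -2.25 to 0.44). It was -0.37 without Sox2cKO replicate 2 and -1.58 without replicate 3. Sox2cKO replicates 1 and 2 lay below all CTRL values, and replicate 3 lay within them. Cxcl1 read 12.86, 12.75 and 13.08 against 12.89, 12.17 and 13.01 (difference -0.20, SE 0.23), and all 3 of its probe sets were lowest in Sox2cKO replicate 2. None of these differences passed the test, and fewer cells of a type and less RNA per cell cannot be told apart in sorted bulk samples.

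The interferon-inducible ligands Cxcl9, Cxcl10 and Cxcl11, which bind Cxcr3, varied by 1.95 to 3.90 log2 units among the 6 arrays with no division by genotype. Cxcl9 read 10.30, 7.25 and 8.25 in CTRL and 8.36, 11.15 and 8.22 in Sox2cKO. The high arrays were CTRL replicate 1 and Sox2cKO replicate 2, and its second probe set had the same 2 arrays highest (7.14 and 7.87, against 4.73 to 5.81). Cxcl10 read 10.30, 8.36 and 9.26 against 9.83, 10.13 and 8.85. Cxcl11 read 6.77, 4.81 and 5.34 against 7.04 in Sox2cKO replicate 2 and 5.43 in each of the others, and it failed the background level in CTRL replicate 2. The differences between group means were 0.64 (SE 0.98), 0.30 (SE 0.52) and 0.32 (SE 0.60). Against CTRL replicate 1 alone, the only control with the male pattern, they were -1.05, -0.70 and -0.81. Interferon gamma (Ifng), which induces these genes, was below the 40th percentile in all 6 arrays (3.68 to 3.89). The 250 bases before the Cxcl10 start (GRCm38.p6, minus strand) are printed because they hold both the NF-kB letters and the interferon response letters (GAAA, any 2 bases, then GAAA), in capitals.
Cxcl10, chr5:92348890-92349139: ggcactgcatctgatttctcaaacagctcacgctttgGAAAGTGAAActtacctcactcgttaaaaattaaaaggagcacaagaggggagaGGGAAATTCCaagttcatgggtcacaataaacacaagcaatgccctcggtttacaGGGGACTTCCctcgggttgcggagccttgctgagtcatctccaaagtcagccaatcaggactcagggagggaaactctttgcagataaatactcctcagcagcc
The interferon response letters occurred in 3.46% of the 27025 genes, and in 2 of the 24 ligand genes (Cxcl10 and Cxcl14).

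Of the 15 inflammatory CC ligands, 8 were above background in all CTRL arrays: Ccl2, Ccl8, Ccl20, Ccl11, Ccl7, Ccl4, Ccl24 and Ccl17. Ccl2, Ccl7, Ccl11, Ccl12, Ccl8 and Ccl1 follow one another on chromosome 11 with no other coding gene between them. Ccl8, a ligand of monocyte and T cell receptors, read 10.55, 8.86 and 8.43 in CTRL and 8.80, 12.10 and 9.05 in Sox2cKO. Ccl11 (eotaxin, which draws eosinophils through Ccr3) read 8.85, 9.74 and 8.50 against 8.17, 11.06 and 6.85, so the highest and the lowest array were both Sox2cKO. Ccl7 read 7.34, 6.98 and 6.53 against 6.10, 8.17 and 6.77. All 3 were highest in Sox2cKO replicate 2, where Ccl8 and Ccl11 exceeded the next array by 1.56 and 1.32. The monocyte attractant Ccl2 was lowest in that array, reading 10.58, 9.46 and 10.22 in CTRL and 10.07, 9.34 and 9.46 in Sox2cKO. Ccl12 stayed below the background level in all 6 arrays (3.69 to 4.25), and Ccl1 lay around it (4.65 to 5.26).

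Differences between groups were 0.70 for Ccl8 (SE 0.93), -0.34 for Ccl11 (SE 0.97), 0.06 for Ccl7 (SE 0.50) and -0.46 for Ccl2 (SE 0.32). Without Sox2cKO replicate 2 they were -0.36, -1.52, -0.51 and -0.32. Fibroblasts and macrophages are also known sources of these ligands. All 10 fibroblast and pericyte markers tested had higher means in Sox2cKO (none passed), and their summed level (log2 of the sum of linear values) was 11.81 to 12.78 in CTRL and 13.04 to 14.21 in Sox2cKO. It was highest in Sox2cKO replicate 3 (14.21), where Ccl11 was lowest, and 13.27 in replicate 2, where Ccl11 was highest. Lum and Dcn, those of smallest p, had differences of 1.61 and 1.73 (SE 0.54 and 0.63). Pdgfra, the CD140a gene used to exclude fibroblasts in the sort, read 5.52, 5.32 and 5.05 in CTRL. In Sox2cKO it read 5.49, 6.21 and 7.25 (difference 1.02, SE 0.41, limma unadjusted p = 0.0396). Of 11 macrophage and monocyte markers, 4 were above background in all CTRL arrays, and Itgam was below it in all 6. Their summed level was 9.45 to 9.65 in CTRL, 9.43 and 10.13 in Sox2cKO replicates 1 and 3, and 9.95 in replicate 2. Such a sum gives bright probe sets the most weight. With equal weight, the 8 markers tested averaged 0.36 above their gene means in Sox2cKO replicate 2 and 0.22 in replicate 3. The other arrays lay at -0.21 to -0.016. Cd68, the marker of smallest p, was highest in Sox2cKO replicate 3 (7.26), as was Cd14 (9.19). C1qa (6.14), C1qb, C1qc, Lyz2 (6.85) and Ms4a7 were highest in Sox2cKO replicate 2, and Csf1r, Adgre1, Mrc1 and Itgam in a CTRL array. The part of these cells in the ligand values was not tested.

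Ccl20, which draws Ccr6-bearing Langerhans cell precursors and T cells, read 10.11, 9.04 and 8.93 in CTRL and 10.05, 8.54 and 8.02 in Sox2cKO. The arrays numbered 1 were highest in both groups, and the groups overlapped (difference -0.49, SE 0.54). The difference was -0.066 without Sox2cKO replicate 3, -0.11 without CTRL replicate 1, -1.08 without Sox2cKO replicate 1 and -1.24 against CTRL replicate 1 alone. Of 9 Langerhans and dendritic cell markers, 7 were tested, 5 had lower means in Sox2cKO and none passed. The summed level of the list was 10.49 to 11.20 in CTRL and 9.40 to 10.41 in Sox2cKO. The 5 lower were Cd74, H2-Aa, H2-Ab1, H2-Eb1 and H2-DMa, which are also the brightest and carry most of this sum. Cd207 and Flt3 were not lower (differences 0.014 and 0.12), and Itgax and Ccr7 were below background in all 6 arrays. The part of these cells in the Ccl20 values was not tested. Ccl5, a T cell and monocyte attractant, read 5.81, 4.79 and 5.02 against 6.14, 5.34 and 5.27, again with both arrays numbered 1 highest (difference 0.38, SE 0.33). Ccl3 and Ccl22 were below background in all CTRL arrays, and Ccl3 exceeded it in 2 Sox2cKO arrays (4.93 and 5.21). Ccl6 and Ccl9 lay between 4.37 and 5.13. Of the other CC ligands above background, Ccl4, a monocyte and T cell attractant, read 5.97 to 6.39, the eotaxin Ccl24 5.33 to 5.71, the Ccr4 ligand Ccl17 4.92 to 5.41 and the Ccr9 ligand Ccl25 5.21 to 6.002.

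Ligands that epithelia can make without inflammation did not pass the test. Cxcl14, a ligand made constitutively by epidermis, read 8.88, 8.59 and 8.56 in CTRL and 8.83, 9.18 and 8.14 in Sox2cKO (difference 0.04, SE 0.26, 95% interval -0.57 to 0.65). Cxcl16, the membrane-bound ligand of Cxcr6, read 9.80, 9.62 and 9.40 against 9.88, 9.08 and 9.39 (difference -0.15, SE 0.22, 95% interval -0.67 to 0.36). Cx3cl1 (fractalkine), also anchored to the membrane, read 6.76, 7.64 and 7.42 against 6.75, 7.81 and 6.99, with both arrays numbered 2 highest. Its difference was -0.09 (SE 0.33, 95% interval -0.85 to 0.67), and all 3 intervals include 0. Cxcl17 (5.76 to 6.24) and Ccl28 (5.53 to 5.76) were above background in every array and spanned less than 0.5 units.

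Of 12 members above background that had several probe sets, 6 had all of them above it in CTRL. The exceptions were Cxcl9, Cx3cl1, Ccl28, Cxcl12, Cxcl13 and Ccr2. For Cxcl9 the second probe set missed it in CTRL replicate 2, and 1 probe set each of Cx3cl1 (3.89 to 4.24) and Ccl28 (3.35 to 3.48) was below it throughout. Cxcl12, the ligand of Cxcr4 and Ackr3, read 6.11 to 6.59 on the probe set used here, but its others read 4.32 to 5.50 and 4.70 to 6.15. Cxcl13, the B cell attractant, read 5.42 to 5.78, and its other probe set 3.76 to 4.25. Ccr2 read 5.52 to 5.86, while its 3 other probe sets stayed at 3.49 to 4.03. With the median over probe sets, Cxcl12, Cxcl13 and Ccr2 were no longer above background, and 23 ligands and 6 receptors were. The skin ligand Ccl27a read 5.33, 5.72 and 4.76 in CTRL and 5.12, 5.59 and 4.41 in Sox2cKO on its own probe set, near background.

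The colony-stimulating factor genes were above background in all CTRL arrays, and Csf2 failed that level in Sox2cKO replicate 2. Csf3 read 11.65, 11.50 and 11.36 in CTRL and 11.41, 9.05 and 11.84 in Sox2cKO. Sox2cKO replicate 2 was lowest, with a gap of -2.31 to the nearest of the other 5 arrays, which spanned 11.36 to 11.84. The difference was -0.74 (SE 0.65, 95% interval -2.28 to 0.80) and turned to 0.12 without that array. Csf2 read 5.74, 6.31 and 5.41 against 5.24, 4.85 and 5.53, a 1.53-fold lower mean in Sox2cKO (difference -0.62, SE 0.27, 95% interval -1.24 to 0.01). Its unadjusted p of 0.0531 did not pass, and replicate 3 ran the other way (0.12). Csf1 read 7.83, 8.02 and 7.30 against 7.68, 7.86 and 7.31 (difference -0.10, SE 0.23), and its 4 probe sets were all above background. Of their receptors and the second Csf1r ligand Il34, 4 of 6 were tested and none passed, and Csf2rb and Csf2rb2 were below background in all 6 arrays.

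Among receptors, the atypical receptor Ackr3 was far above background, and the leukocyte receptors were not. Ackr3, which takes up Cxcl12 and Cxcl11, read 9.69, 9.76 and 9.95 in CTRL and 9.70, 10.34 and 9.78 in Sox2cKO (difference 0.13, SE 0.19). Ackr4, which takes up Ccl19, Ccl21 and Ccl25, read 5.61, 6.68 and 6.004 against 5.63, 5.48 and 5.61. CTRL replicate 2 stood highest, and the difference was -0.53 (SE 0.26, unadjusted p = 0.0789). Against CTRL replicate 1 alone it was -0.036. Ackr1 read 5.97 to 6.62, and Ackr2 passed background in 1 CTRL array and in all Sox2cKO arrays (5.34, 4.94 and 4.94). Ccr1, Ccr3, Ccr4, Ccr7, Ccr8, Cxcr4, Cxcr5 and Cxcr6 were below the 40th percentile in all 6 arrays, with values between 3.68 and 4.69. Cxcr4, the signalling receptor of Cxcl12, read 4.09 to 4.45. Ptprc, the CD45 gene used to exclude leukocytes in the sort, read 4.58 to 5.51 and was highest in Sox2cKO replicate 2. Of 11 leukocyte markers, 9 were tested, 4 higher and 5 lower, and none passed. These 9 averaged 0.23 above their gene means in Sox2cKO replicate 2 and -0.14 to 0.041 in the other arrays. Rac2, the marker of smallest p, was lowest in that array (5.44). The part of leukocytes in the member values was not tested.

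**Figure D2:**
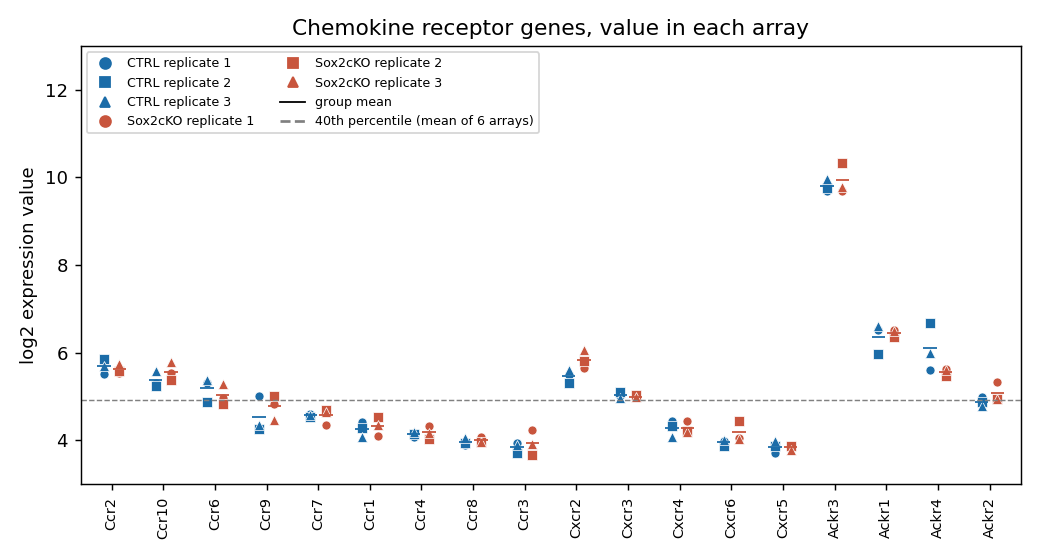
Log2 expression value of each of the 18 receptor genes in each of the 6 arrays (blue, CTRL; red, Sox2cKO; marker shape, replicate number), with group means as short lines and the mean 40th percentile dashed. Ackr3 lies between 9.69 and 10.34, and 8 receptors lie below the dashed line in every array.

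Cxcr2, the receptor of the ELR ligands, was the 1 tested member whose groups did not overlap. It read 5.49, 5.32 and 5.597 in CTRL and 5.66, 5.81 and 6.06 in Sox2cKO, a 1.30-fold higher mean (difference 0.38, SE 0.15, 95% interval 0.03 to 0.72). Its unadjusted p was 0.0368 and its limma adjusted p 0.999, so it did not pass. Cxcr2 had 1 probe set, whose CTRL mean was only 0.55 above the mean 40th percentile of the CTRL arrays. Of 8 neutrophil markers on the array, 4 were above background in all CTRL arrays (Elane, Csf3r, Camp and Ltf), and Clec4d and Mmp8 were below it in all 6 arrays. Their summed level was 8.08 to 9.81 in CTRL and 8.08 to 8.65 in Sox2cKO, and Ltf, a granule protein, read 5.69, 9.37 and 7.68 against 4.98, 6.59 and 6.98. The highest sum, in CTRL replicate 2, came mostly from Ltf, while Elane, Csf3r and Camp read 5.09 to 5.92 in all arrays. The part of neutrophils in the Cxcr2 values was not tested. Ccr10, the receptor of Ccl27 and Ccl28, read 5.25 to 5.79 and Cxcr3 4.97 to 5.11.

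Over the whole set, no gene passed the test between Sox2cKO and CTRL. Of the 53 members, 39 passed the intensity filter, 30 ligands and 9 receptors, and 14 were too low to be tested. At an adjusted p of 0.05, 0 of the 39 were called (0.0% of all 13222 genes tested were called), and the lowest adjusted p among them was 0.999. At an unadjusted p of 0.05, 1 of 39 passed (2.68% of all genes), namely Cxcr2. With groups that did not overlap there was the same 1 of 39, beside 5.85% of all genes. It was 1 higher in Sox2cKO (2.73% of all genes) and 0 lower (3.12%). Means were higher in Sox2cKO for 18 members and lower for 21, beside 50.6% and 49.4% of all genes. The median difference was -0.05 for members and 0.0027 for all genes. With the replicate number as a block, 5 of 39 had an unadjusted p under 0.05 (Cxcl2, Ccl2, Ccl20, Ccl5 and Cxcr2), beside 4.96% of all genes, and again none had an adjusted p under 0.05 (lowest 0.941). In those 5 the 3 pairs ran the same way, for example -0.51, -0.11 and -0.76 in Ccl2, -0.07, -0.50 and -0.91 in Ccl20 and 0.32, 0.55 and 0.26 in Ccl5. A small p in this fit nearly requires pairs of like sign, so their agreement adds no support. Members with a larger p showed it too, for example Ccr10 (0.21, 0.14 and 0.20).

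**Figure D3:**
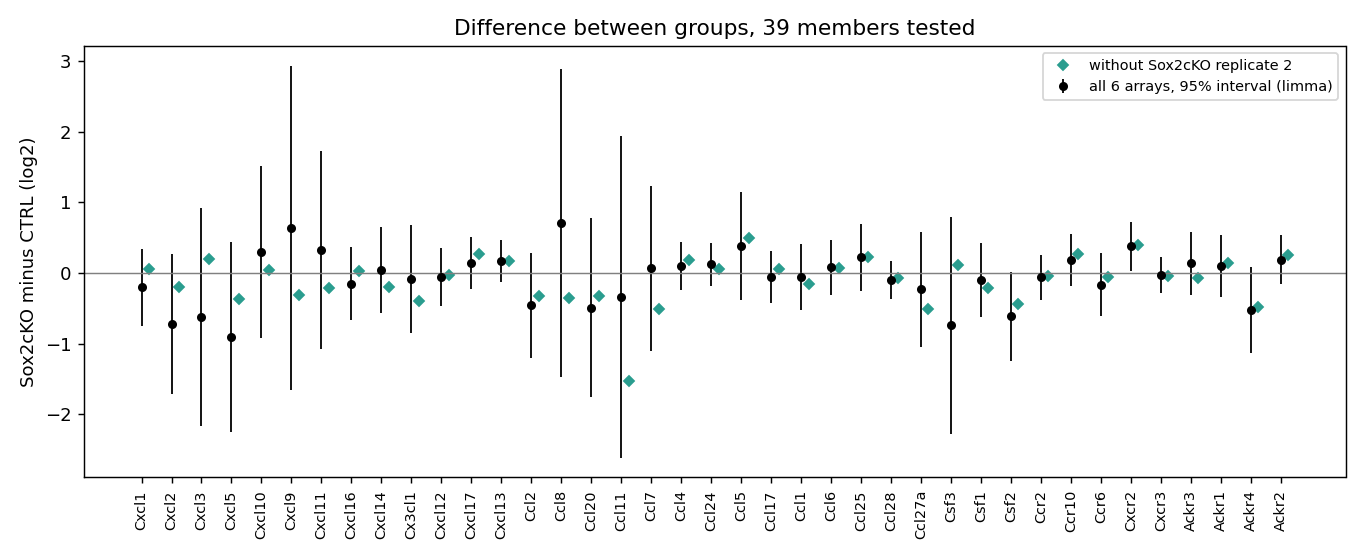
Sox2cKO minus CTRL difference (log2) of the 39 members tested, with limma's 95% interval (black, 3 arrays per group) and without Sox2cKO replicate 2 (green). The interval of Cxcr2 lies above 0, all others include 0, and Csf3, Cxcl3, Cxcl9, Cxcl11, Ccl8 and Ccl7 are among those that change sign without that array.

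The members varied within groups more widely than most genes did. The median SD within groups was 0.33 log2 units for the 39 members and 0.19 for all 13222 genes. For Cxcl9, Ccl11 and Ccl8 it was 1.60, 1.59 and 1.52, larger than for 99.9%, 99.9% and 99.8% of genes. It was also above that of 97% of genes for Cxcl3 (1.07), Csf3 (1.07), Cxcl11 (0.97), Cxcl5 (0.93), Ccl20 (0.88), Cxcl10 (0.84), Ccl7 (0.80) and Cxcl2 (0.67). The CTRL arrays varied as well, with an SD of 1.55 for Cxcl9, 1.02 for Cxcl11 and 0.98 for Cxcl10. Sox2cKO replicate 2 lay outside the range of the other 5 by at least 1 log2 unit in 5 members, namely Cxcl2, Cxcl3, Csf3, Ccl8 and Ccl11. That is 12.8% of 39, beside 0.386% of all genes tested. By at least 1 log2 unit the other arrays counted 0 members, except 1 in Sox2cKO replicate 3 (Ccl11). By any amount it lay outside that range in 22 members (56.4%), beside 43.3% of all genes. For the other arrays that count was 6 to 19 members, the 19 in CTRL replicate 2. The counts were added after the values had been seen and describe single arrays.

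**Figure D4:**
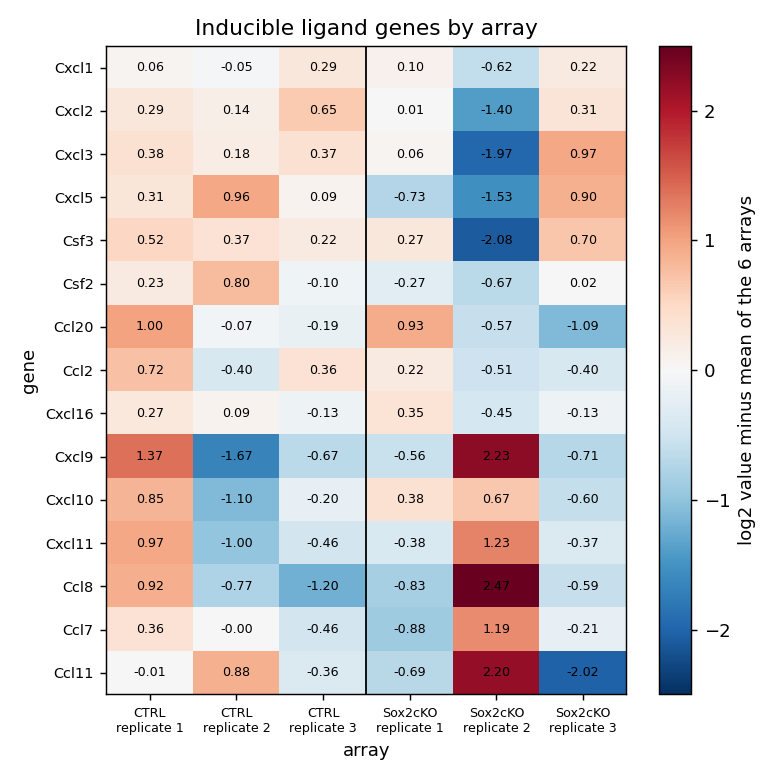
Log2 value of 15 ligand genes, picked by hand and not by a rule, minus their mean over the 6 arrays, by array (colour and number). CTRL is left of the line and Sox2cKO right. The 15 include all 5 members in which Sox2cKO replicate 2 lay at least 1 log2 unit outside the other arrays. In Sox2cKO replicate 2 Csf3 and Cxcl3 are at -2.08 and -1.97 from their means, and Ccl8 and Cxcl9 at 2.47 and 2.23.

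None of the genes that act upstream of the ligands passed the test. Of 16 inducing transcription factors and feedback genes, all were tested and none passed, with 7 higher, 9 lower and a median of -0.04. The feedback gene of smallest p was Tnfaip3, an NF-kB-induced inhibitor of NF-kB (11.28, 11.66 and 11.66 in CTRL, 11.46, 11.45 and 11.19 in Sox2cKO, difference -0.17, SE 0.16). The other genes of this list were picked after their values had been seen. Nfkbia, the NF-kB inhibitor that NF-kB itself induces, read 13.25 to 13.41 and Nfkbiz 12.34 to 12.60, spans of under 0.3 log2 units that include Sox2cKO replicate 2. Rel and Rela were lowest in that array (7.64 and 10.19, against 7.83 to 8.84 and 10.25 to 11.02 elsewhere). Nfkbia, Nfkb2, Relb and Nfkbib were lowest there too. Irf1, Jun, Fos, Atf3 and Cebpd were highest there, and the remaining genes of the list were at neither end. Of 14 inducing cytokines and their receptors, 13 were tested and none passed, with 5 higher, 8 lower and a median of -0.05. Tslp, an epithelial cytokine, read 10.39, 12.01 and 10.86 in CTRL and 12.10, 10.86 and 12.12 in Sox2cKO. Il1a read 8.32, 7.19 and 7.86 in CTRL and 7.71, 6.82 and 7.63 in Sox2cKO, and Tnf 8.07, 9.36 and 8.76 against 8.31, 8.08 and 8.34.

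Among chemokine-related genes outside the naming rule, 7 of 10 were tested and none passed (2 higher, 5 lower, median -0.04). Cd74, a receptor of the chemokine-like cytokine Mif and a chain needed for antigen presentation, read 8.80, 7.76 and 8.14 in CTRL and 7.14, 7.70 and 6.59 in Sox2cKO. Its groups did not overlap (difference -1.09, SE 0.34, limma adjusted p = 0.999), and it is also on the Langerhans and dendritic cell list. Ppbp, picked after its values had been seen and another ELR ligand of the chromosome 5 cluster, read 5.27, 8.76 and 6.84 in CTRL and 4.56, 5.75 and 7.87 in Sox2cKO, and was highest in CTRL replicate 2 rather than lowest in Sox2cKO replicate 2. Genes of chemokine receptor signalling had a median of 0.02 (13 tested, 10 higher, 3 lower, none passed), and the groups did not overlap for Ptk2b, a kinase downstream of chemokine receptors (8.08 to 8.34 in CTRL, 8.44 to 8.54 in Sox2cKO). Chemokine-handling proteases had a median of 0.06 (6 tested, 3 higher, 3 lower, none passed). Within these, Mmp2, also a chemokine-cleaving protease and the one of smallest p, read 8.69, 8.31 and 7.73 in CTRL and 8.51, 9.52 and 9.23 in Sox2cKO (difference 0.84, SE 0.32, unadjusted p = 0.0333). Mmp9, which can cleave ELR ligands, read 9.09, 9.66 and 8.66 in CTRL and 8.73, 7.79 and 8.75 in Sox2cKO, lowest again in replicate 2.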

How the data were processed

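Cells from 3 CTRL and 3 Sox2cKO papilloma samples were profiled on Affymetrix arrays from 100 ng of total RNA each, per the labels' protocols. The authors deposited log2 expression values, 1 per probe set and array, read as log2 from their range. R 2.14.0 is named by the submitters' processing notes. Background correction, summarising and normalization are not given in the sources used here, and low values flatten towards background. The number of arrays limits the precision.

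Of 45037 mouse probe sets, 34945 carried 1 gene, 932 more than 1, and 9160 no name. Entrez identifiers gave no newer symbols (0 updated). Each gene was read on its probe set of highest mean. Genes above the array's 40th percentile in at least 3 of 6 arrays (13222) entered a two-sided moderated fit by limma 3.58.1 (lmFit, eBayes; R 4.3.3), with Benjamini-Hochberg adjustment over all of them and a threshold of 0.05. An exact permutation test of 3 against 3 arrays cannot go below p = 0.1. Arrays of the same replicate number deviated together (correlation 0.206 to 0.288 across genes for the 3 pairs, -0.333 to 0.0636 for other numbers), so the numbers were treated as pairs in an alternative fit. The procedure was tested on simulated data. Promoters were matched by symbol to RefSeq (39 of 53 members).

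The text names all ligands above background in CTRL, the colony-stimulating factors, receptors above background, members whose groups did not overlap, the 5 of smallest p and preset skin chemokines, plus up to 3 genes of smallest p from each marker or pathway list. Other list genes (Itgam, Adgre1, Mrc1, Cd14, C1qb, C1qc, Ms4a7, Csf3r, Elane, Clec4d, Mmp8, Ptprc, Csf2rb, Csf2rb2, Ifng, Nfkbia, Nfkbiz, Rel, Rela, Nfkb2, Relb, Nfkbib, Irf1, Jun, Fos, Atf3, Cebpd, Ppbp, Krt1, Krt10, H2-Aa, H2-Eb1, Cd207, Flt3, Itgax, Cd3e, Cd4, Cd3g, Cd247, Cd2, Nkg7) and members below background were named after their values were seen. Members, lists and rules were chosen with earlier results of these data known.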

Additional observations from a re-analysis of the deposited data

How the results depend on the processing

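No member passed an adjusted p of 0.05 under any of the 14 alternatives, where the lowest adjusted p of a member was 0.845 (Ackr4 without CTRL replicate 1, difference -0.77). With the replicate block 0 of 39 were called, and 5 had an unadjusted p under 0.05. Members whose groups did not overlap numbered 2 without the intensity filter and 2 to 5 when an array was left out, beside 6.46% and 10.8% to 20.1% of all genes. Receptors above background in CTRL numbered 4 and ligands 21 against the array median, and 10 and 31 against the 30th percentile. The members' median difference ran from -0.16 (sex covariate) to 0.04. Of the 39 differences, 14 kept their sign under all alternatives. Of the other 25, none called, those that took both signs when arrays were left out in turn were Cxcl10 -0.18 to 0.80, Cxcl9 -0.31 to 1.49, Cxcl11 -0.21 to 0.89, Cxcl14 -0.19 to 0.33, Cx3cl1 -0.40 to 0.13, Ccl11 -1.52 to 0.58, Ccl1 -0.21 to 0.093, Csf1 -0.31 to 0.053, Ccr2 -0.15 to 0.020, Cxcr3 -0.061 to 0.010, Ackr1 -0.10 to 0.22, Cxcl12 -0.19 to 0.049, Ccl7 -0.51 to 0.52, Ccl17 -0.14 to 0.062, Ccl6 -0.032 to 0.19, Cxcl1 -0.36 to 0.057, Cxcl3 -1.27 to 0.20, Cxcl16 -0.37 to 0.033, Ccl8 -0.36 to 1.33, Csf3 -1.27 to 0.12, Ackr3 -0.065 to 0.25, Ccl4 -0.030 to 0.18 and Ccl27a -0.51 to 0.081. With a sex covariate, which compares with CTRL replicate 1 alone, Cxcl10 -0.70, Cxcl9 -1.05, Cxcl11 -0.81, Cxcl14 -0.16, Cx3cl1 0.42, Ccl8 -0.56, Ccl7 -0.33, Ccl5 -0.23, Ccl1 0.27, Ccl25 -0.095, Ccr2 0.10 and Ackr1 -0.049 had the other sign, as had Cx3cl1 0.029, Cxcl12 0.49 and Ccr2 0.090 with the median over probe sets. Why was not tested, beyond the fewer arrays compared. Signal near background limits the receptors and the CC ligands of low value.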

Other observations

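The skin ligand Ccl27 has probe sets shared by Ccl27a, Ccl27b and near-identical copies, which belong to no single gene and entered no comparison. The brighter of the shared Ccl27 probe sets read 8.93, 7.75 and 7.35 in CTRL and 9.31, 9.33 and 6.71 in Sox2cKO. All 8 suprabasal keratinocyte markers had higher means in Sox2cKO (median difference 0.36), and none passed. Lor, the one of smallest p, was the 1 of 8 whose groups did not overlap (6.01 to 6.28 in CTRL, 6.46 to 6.51 in Sox2cKO), beside 5.85% of all genes. The summed level of the 8 (log2 of the sum of linear values), among them Krt1, Krt10 and Ivl, was 15.13, 14.40 and 14.60 in CTRL. In Sox2cKO it was 15.25, 15.16 and 14.47. The arrays high in both that probe set and this sum were CTRL replicate 1 and Sox2cKO replicates 1 and 2. The other shared Ccl27 probe set read 5.84, 5.82 and 5.28 in CTRL and 5.76, 5.83 and 5.24 in Sox2cKO. It and the Ccl27a probe set were also high in CTRL replicate 2, where the suprabasal sum was lowest. The shared probe set of the Ccl21 copies read 5.94, 5.88 and 5.19 in CTRL and 5.44, 5.06 and 5.32 in Sox2cKO, and that of the Ccl19 copies 5.21 to 5.59 over the 6 arrays.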
